A study of Mus musculus with 3 samples.

Results

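The cytoplasmic ribosomal protein genes were described in single cells of mouse blastocysts. They comprised the gene symbols that begin with Rpl or Rps followed by a digit, together with Rplp0, Rplp1, Rplp2 and Rpsa, without symbols that hold -ps (a mark of pseudogenes) and without the Rps6k kinases. Of 23154 genes in the count tables, 104 symbols matched, 6 held -ps and 10 were kinases, which left 88 genes, 53 of the large subunit series and 35 of the small subunit series. One of the 35, Rps19bp1, codes for a protein that binds Rps19 and not for a ribosomal protein. Another 2 symbols, Rpl37rt and Rps4l, are annotated as transcribed processed pseudogenes. The cells came from embryos of a Klf2-H2Bmcherry mouse line, which carries a fluorescent histone reporter at Klf2, that were taken at E2.5, kept in static and shaking culture, and taken apart at the blastocyst stage (E3.5). The labels do not assign a cell to either culture and give no sex or genetic background of the embryos, so the 3 libraries, called replicates 1 to 3, were 1 group, and no culture comparison was made.

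Each ribosome holds a single copy of most of these proteins, and cells make them in matched amounts from genes that are scattered over the genome. Their mRNAs begin with a run of pyrimidines, the 5′ TOP motif, through which LARP1 and mTORC1 adjust their translation together. Some genes have paralogs that are known for expression in particular tissues. The blastocyst holds the trophectoderm (TE), the outer fluid-pumping epithelium, and the inner cell mass (ICM), the source of epiblast (EPI) and primitive endoderm (PrE).

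Of 288 barcodes, 225 had at least 2000 genes with a count and were retained as cells (83, 64 and 78 in replicates 1 to 3). Clustering on marker genes alone, with no ribosomal protein gene among them, gave 108 TE-like cells (30, 36 and 42), 96 ICM-like cells (35, 27 and 34) and 21 unnamed cells (18, 1 and 2). Summed TE markers reached 6046 ± 1199 CPM (counts of a gene per 1000000 counts summed over a class or library) in the TE-like class and 660 ± 193 CPM in the other, and summed ICM markers 207 ± 100 and 1055 ± 118 CPM (SD, n = 3 libraries). Within these lists Lcp1 and Sox2 were at 0. Median totals per cell were 310803 and 262815 counts in TE-like and ICM-like cells of replicate 1, 374934 and 338343 in replicate 2, and 617480 and 618378 in replicate 3. Summed markers of cumulus, blood, oviduct and fibroblast cells reached at most 16.6 CPM in either class of a library. Of these lists 3 of 7 cumulus, 4 of 6 blood and 3 of 6 fibroblast markers were at 0. Summed oocyte markers, of which none of 7 was at 0, lay between 8.95 and 26.1 CPM in all but 1 class sum, the ICM-like cells of replicate 1 (56.0 CPM). The libraries use the same 96 barcode numbers, and 46 numbers gave a cell in all 3. The ICM-like cells split into a cluster of 68 cells that the rule named PrE-like and an unnamed cluster of 28. The 68 cells were higher in both marker lists, by a mean log2 (CPM + 1) of 0.99 for PrE and 0.83 for EPI markers. The name therefore does not set PrE apart from EPI cells. No cluster met the rule for EPI-like cells, so EPI-like and PrE-like cells were not compared.

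Replicate 2 and a block of barcodes in replicate 1 stood apart in these genes. The 88 genes held 14.7% of the counts of all cells in replicate 1, 4.72% in replicate 2 and 14.5% in replicate 3. In replicate 1, the 18 unnamed cells all lay among barcodes 33 to 64, where 29 barcodes passed as cells, and the genes held a median of 2.05% of their counts. Results were therefore also computed without replicate 2 and without barcodes 33 to 64.

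The summed share of the ribosomal protein genes differed little between the 2 cell classes of a library and much between libraries. In replicate 1 the genes held 21.3% of the counts of TE-like and 21.5% of those of ICM-like cells. In replicate 2 the shares were 4.55% and 4.92%, and in replicate 3 they were 13.7% and 15.5%. The TE-like share was the lower one in each library, at 0.993, 0.925 and 0.886 times the ICM-like share, a mean log2 ratio of -0.10 ± 0.08 (SD, n = 3). Without barcodes 33 to 64 the factors were 0.944, 0.890 and 0.871. Another setting thinned each cell to 50000 counts and left out the 19 of 204 cells below that total. There the factors were 1.01, 0.969 and 0.849, so the order in replicate 1 turned. The parts of the thinning and of the cells left out were not told apart.

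**Figure D1:**
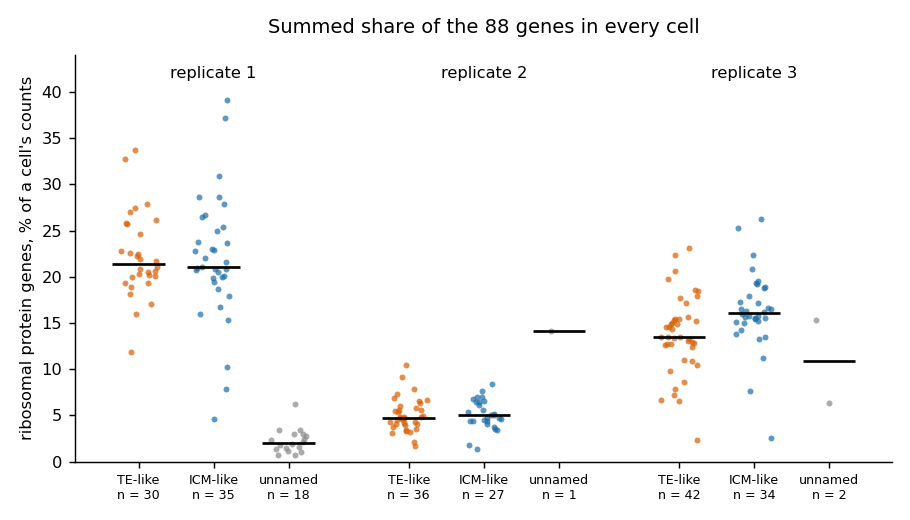
Share of a cell's counts that came from the 88 genes (vertical axis, %) for every retained cell, by library and cell class; horizontal lines are medians. TE-like and ICM-like cells of a library overlap, replicate 2 lies near 5%, and the 18 unnamed cells of replicate 1 have a median of 2.05%.

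Single cells overlapped widely. In replicate 1 the share ran from 11.9% through a median of 21.4% to 33.7% in TE-like cells, and from 4.65% through 21.1% to 39.1% in ICM-like cells. In replicate 3 it ran from 2.34% through 13.5% to 23.1% and from 2.61% through 16.1% to 26.3%. The plot of shares by cell shows medians that lay farther apart between replicate 2 and the other libraries than between the classes of a library. A share is relative to a cell's total count and gives no amount of RNA per cell. Within a class and library the share and the total count of a cell had Spearman correlations of -0.35 to -0.05 over 27 to 42 cells, given as a description. A finer clustering set apart 21 shallow cells (median 50131 counts, 14 TE-like and 7 ICM-like), in which the median share was 7.82%, 3.36% and 9.53% in replicates 1 to 3. With only the cells that both clusterings named alike, the mean log2 ratio of the shares was -0.14 ± 0.10 (SD, n = 3).

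The proportion of large to small subunit counts was nearly the same in both classes. The large subunit genes held 1.43 times the counts of the small subunit genes in TE-like and 1.44 times in ICM-like cells of replicate 1. The ratios were 1.67 and 1.70 in replicate 2 and 1.398 and 1.391 in replicate 3. The class difference was smaller than that between replicate 2 and the other libraries.

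Levels in this paragraph were taken over all retained cells. Those of replicate 1 therefore include its 18 unnamed cells, in which these genes were low. By mean of these levels over the 3 libraries, the highest genes were Rplp0 (3292 ± 983 CPM, SD, n = 3) and Rpl4 (3008 ± 214 CPM). Rpl41 (2927 ± 2161 CPM), Rpl8 (2903 ± 1475 CPM) and Rps3 (2742 ± 1522 CPM) followed. Rplp0 is the base of the stalk that recruits translation factors, and Rps3 lies at the mRNA entry channel. The order differed between libraries: Rpl41 led in replicate 1 (5292 CPM, with Rplp0 at 3259), Rpl4 in replicate 2 (2942 CPM, with Rplp0 at 2325) and Rplp0 in replicate 3 (4291 CPM). The SD between libraries was 7.10% of the mean for Rpl4 and 113% for Rps29, with a median of 58.3% over the 75 genes with a mean of at least 300 CPM. Levels of different genes were compared per kilobase of coding sequence, although counts from 3′ ends depend little on length and this scale raises short genes. On it Rpl41, which codes for a peptide of very few residues, led with 37530 CPM per kilobase, followed by Rps29 (11902), Rplp1 (7834), Rpl39 (6009) and Rplp2 (5262). The quartiles of the 75 genes were 2275 and 3609 CPM per kilobase. The lowest of the 75 was Rps2 with 355 CPM per kilobase.

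A few ribosomal protein genes were listed at or near 0. Rpl26, Rps15, Rps4l and Rps27rt were listed at 0 in all 225 cells; a count of 0 allows up to 0.0983, 0.109 and 0.0553 CPM in replicates 1 to 3 (3 counts per library, counting error only). Rpl34 had 8, 0 and 21 counts and Rpl30 had 19, 6 and 32 counts in replicates 1 to 3. Rpl26, Rps15, Rpl34 and Rpl30 code for ordinary ribosomal proteins. Of the 50-base stretches in the last 300 bases of their annotated transcripts, 64.1%, 55.8%, 54.2% and 80.9% also occur, on either strand, in transcripts of other genes, pseudogenes included. Such sharing was common: 69 of the 88 genes shared at least 1 stretch and 54 shared at least 50%. Among the abundant genes, 62.9% of the stretches were shared for Rpl41 and 76.1% for Rps3a1. The part of sharing in the values was not tested. All of the last 300 bases of the Rpl5 transcript used overlap Fam69a, a gene on the opposite strand. No source used here gives the strand setting of the counting, so without strand their reads there cannot be told apart. Exons of other genes, on either strand, also overlapped the last 300 bases of Rpl23a (100%, Tlcd1), Rps10 (86%) and Rpl36al (69%). The overlap was 58.3% for Rpl24 and 53% for Rpl22l1, and smaller in a few more genes.

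Between TE-like and ICM-like cells, the ribosomal protein genes were nearly level. Of 82 genes that passed the filter on low counts, 1, Rpl10l, passed the threshold (edgeR's quasi-likelihood test on class sums with the library as a block, Benjamini-Hochberg adjusted over all genes, 0.05), and it was lower in TE-like cells. The same fit called 558 of 13517 genes, or 4.13%, of which 383 were higher (2.83%) and 175 lower (1.29%) in TE-like cells. At an unadjusted p below 0.05 there were 3 ribosomal protein genes, Rpl10l, Rpl3l and Rpl7l1, each a paralog, beside 2304 of all 13517 genes tested. DESeq2 on the same sums called Rpl10l and Rpl3l, beside 11.5% of all genes. Without barcodes 33 to 64 edgeR called Rpl10 alone, beside 4.27% of all genes (log2 fold change -0.32, adjusted p = 0.046). In that fit 27 of 82 ribosomal protein genes had an unadjusted p below 0.05, each of them lower in TE-like cells. No count over all genes was made at that p in that fit, so the 27 cannot be set against a background. Values of the 3 libraries did not overlap between the classes for 2 of the 82 genes, Rpl7l1 and Rpl3l, against 9.58% of all genes tested. The summed share of the genes ran from 4.55% to 21.3% over the TE-like sums. Overlap was thus likely for most of them whatever the class difference, and this count says little about the classes. The labels do not tie the 3 libraries to separate litters or days, so the p-values cover the spread between libraries only, which may be technical.

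For the 75 genes with a mean of at least 300 CPM, the log2 fold change of TE-like over ICM-like cells lay between -0.21 (Rpl39) and 0.11 (Rps27l), with a median of -0.03. Each of the 75 had a 95% interval inside a 1.5-fold change in either direction. These ranges hold for the main choice of cells and libraries. The median was -0.15 without replicate 1, -0.01 without replicate 2, 0.03 without replicate 3 and -0.12 without barcodes 33 to 64. The lowest value was -0.39 without replicate 2, and -0.86, outside the 1.5-fold bound, with TE-like cells of finer cluster 4 alone, where the median was 0.08. The interval bounds that reached farthest in the main fit were -0.54 for Rps2 and 0.38 for Rpl12, and the median standard error was 0.10. The median absolute log2 fold change was 0.05 over the 82 genes, 0.47 over all genes tested, and 0.21 over 235 other genes with a mean of at least 9 on the log2 CPM scale, of which 34 were called higher and 9 lower. The sign depended on the scaling and on the libraries and cells kept: 60 of the 82 genes were below 0 with TMM factors, 78 with library totals alone, and 38 when the summed count of the 88 genes served as the library size. With TMM factors it was 79 of 83 without replicate 1, 49 of 83 without replicate 2, 36 of 82 without replicate 3, 78 of 82 without barcodes 33 to 64 and 23 of 82 with finer TE-like cluster 4 alone. On library totals 42, 67 and 79 of the 82 genes were lower in TE-like cells of replicates 1, 2 and 3, beside 55.1%, 49.3% and 51.7% of all genes tested. In all 3 libraries 32 were lower and 1 higher, beside 22.3% and 18.8% of all genes tested.

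**Figure D2:**
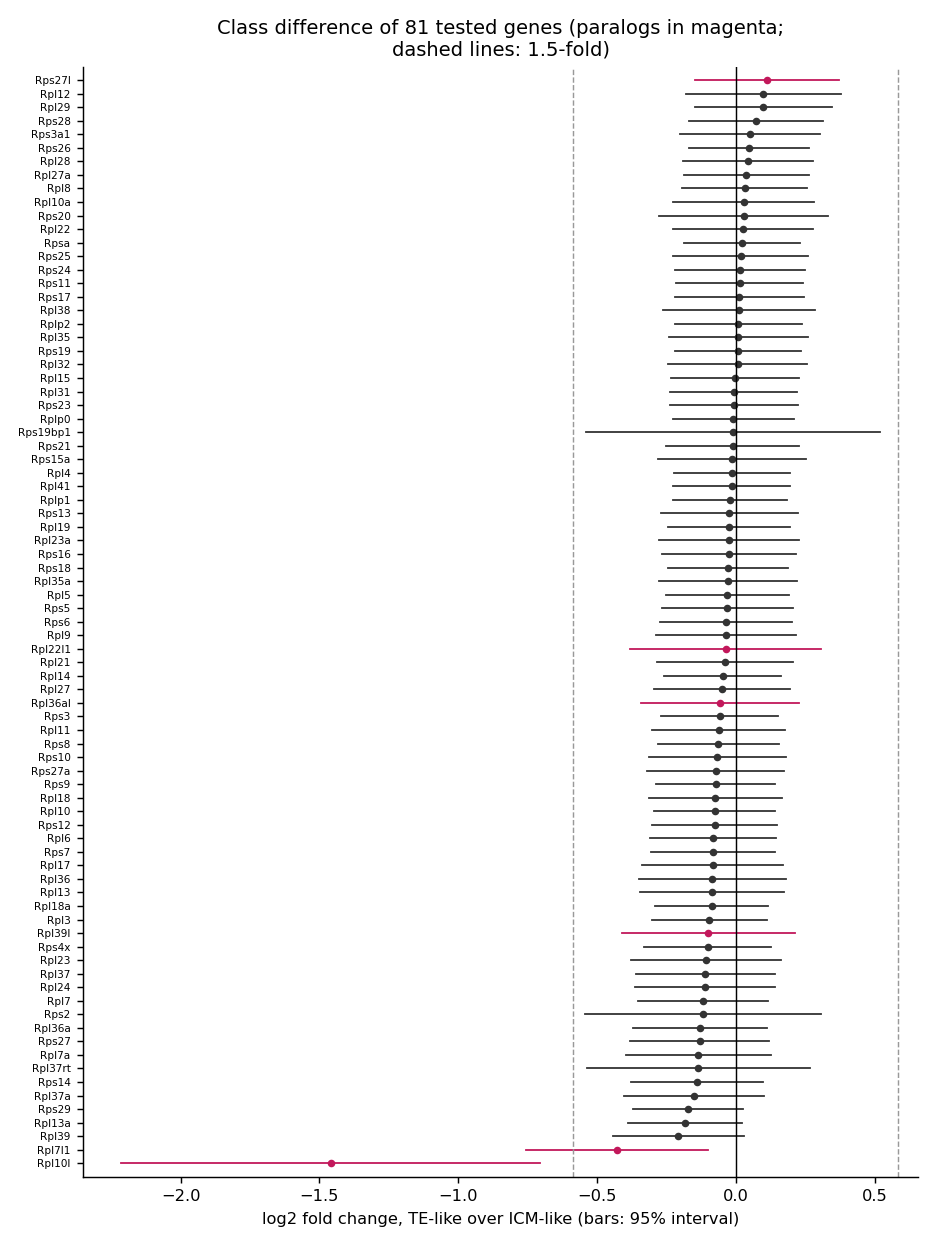
Log2 fold change of TE-like over ICM-like cells (horizontal axis) for 81 tested genes, one line per gene, with 95% intervals from edgeR as bars and paralogs in magenta; Rpl3l is left out because it had at most 2 counts in TE-like cells of a library. All intervals of genes with at least 300 CPM lie inside the dashed 1.5-fold lines, and Rpl10l lies at -1.46.

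**Figure D3:**
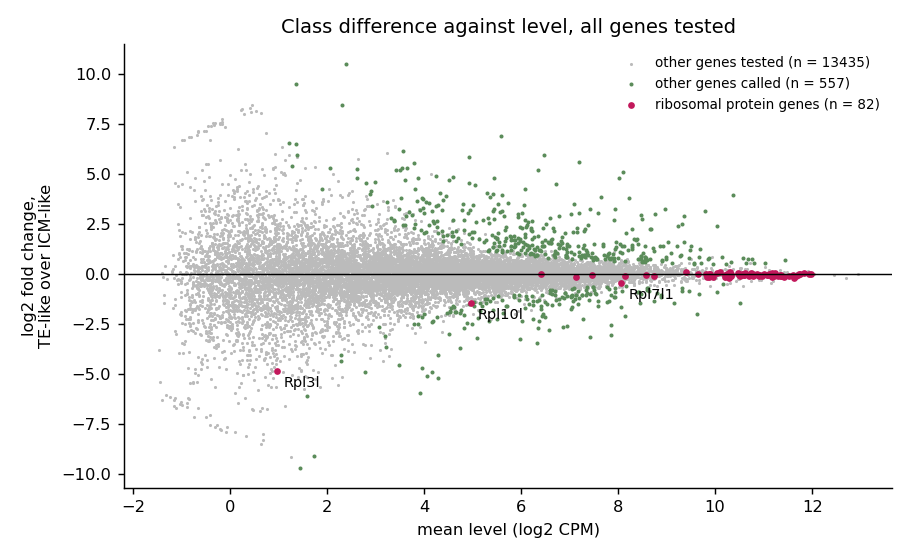
Log2 fold change of TE-like over ICM-like cells (vertical axis) against mean level in log2 CPM (horizontal axis) for all 13517 genes tested; green points are other genes past the threshold and magenta points are the 82 tested ribosomal protein genes. The magenta points at high level lie along 0, and Rpl10l, Rpl3l and Rpl7l1 lie below.

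Among the large subunit genes without paralogs, 43 of 46 were tested, none was called in edgeR or DESeq2, none had an unadjusted p below 0.05 in edgeR, and the median log2 fold change was -0.04. Rpl39, which lines the exit tunnel, had 2065, 482 and 718 CPM in TE-like sums and 2374, 593 and 870 CPM in ICM-like ones (replicates 1 to 3). Its log2 fold change was -0.21 ± 0.10 (SE; edgeR adjusted p = 0.364), lower in TE-like cells of each library, while the range over libraries overlapped. Rpl13a, known for its part in interferon-induced silencing of translation, stood at 4120, 952 and 3199 against 4674, 1127 and 3877 CPM. Rpl37a had a log2 fold change of -0.15 ± 0.11 (SE). In the other direction Rpl12, at the base of the stalk, had 1777, 283 and 1625 against 1472, 301 and 1674 CPM, higher in replicate 1 and lower in replicates 2 and 3. Rpl29 stood at 0.10 ± 0.11 (SE) on the log2 scale.

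Of the small subunit genes, 30 of 31 without paralogs were tested, none was called in edgeR or DESeq2, none had an unadjusted p below 0.05 in edgeR, and the median log2 fold change was -0.03. Rps29, a short zinc-binding protein of the small subunit head, had 5700, 671 and 651 CPM in TE-like sums and 6832, 756 and 769 CPM in ICM-like ones. It was lower in TE-like cells of each library, with a log2 fold change of -0.17 ± 0.09 (SE; edgeR adjusted p = 0.368). Rps28 stood at 0.07 ± 0.11 and Rps3a1 at 0.05 ± 0.11 (SE). Rps2 showed how far 1 library could depart: relative to the other ribosomal protein genes its log2 difference was -0.39, 0.56 and -0.37 in replicates 1 to 3. Its sign in replicate 2 was opposite to that in the other libraries. Rps19bp1 had 196, 9.46 and 11.8 CPM in TE-like sums and 234, 6.53 and 15.5 CPM in ICM-like ones, and did not pass the test (adjusted p = 0.990).

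The stalk proteins Rplp0, Rplp1 and Rplp2, which recruit translation factors, had log2 fold changes between -0.02 and 0.01. Rplp0 counts made 4781, 2269 and 4069 CPM in TE-like sums and 4569, 2384 and 4599 CPM in ICM-like ones. Rpl5 and Rpl11 form a particle with 5S RNA that binds Mdm2 when ribosome assembly is disturbed. Rpl11 had 3558, 754 and 2854 CPM in TE-like sums and 3415, 858 and 3312 CPM in ICM-like ones, a log2 fold change of -0.06 ± 0.11 (SE). Rpl5 stood at -0.03 ± 0.10 (SE), with 95% bounds of -0.25 and 0.19.

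With the summed count of the 88 genes as library size, edgeR called no ribosomal protein gene and gave 3 an unadjusted p below 0.05. This fit called 3.85% of all genes at the adjusted threshold. A count over all genes at the unadjusted p was not made in it, so the 3 has no background beside it. DESeq2, run without that scaling, called Rpl10l and Rpl3l. On this relative scale Rpl7l1 lay lowest among genes of at least 50 CPM with the same sign in each library (-0.38), then Rpl39 (-0.16), Rpl13a (-0.14), Rps29 (-0.13) and Rpl37a (-0.10). Rps27l lay highest (0.16), then Rpl12 (0.15), Rpl29 (0.15), Rps28 (0.12) and Rps3a1 (0.10). Relative differences of 79 genes with at least 100 counts in every class sum agreed weakly between libraries, with Spearman correlations of 0.16, 0.37 and 0.15 over genes, which are not independent.

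Of 7 paralogs tested 1, Rpl10l, passed the test, and Rpl22l1, Rpl36al, Rpl39l and Rps27l had log2 fold changes between -0.10 and 0.11. The sequences of 2 pairs show how far paralog and main gene differ. Rpl10l (chromosome 12, 66283379 to 66284401, minus strand, GRCm38) has 1 exon and a coding sequence as long as that of the X-linked Rpl10 (74270812 to 74273135, plus strand); 84.8% of their 645 coding bases are equal. The last 120 coding bases are printed from GENCODE M21 transcripts, with the 16 bases at which the genes differ in capitals.
Rpl10: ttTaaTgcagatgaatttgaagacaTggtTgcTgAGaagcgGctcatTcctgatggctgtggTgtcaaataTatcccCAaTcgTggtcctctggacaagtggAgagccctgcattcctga
Rpl10l: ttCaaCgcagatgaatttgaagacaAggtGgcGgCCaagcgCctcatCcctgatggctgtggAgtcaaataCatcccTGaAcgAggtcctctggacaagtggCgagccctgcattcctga

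No 50-base stretch in the last 300 transcript bases of Rpl10l occurs in another gene's transcript, while all of those of Rpl10 occur in other transcripts, pseudogenes among them. Rpl10l is known from male germ cells, where it stands in for the X-linked gene. It had 24.9, 5.92 and 15.8 CPM in TE-like cells of replicates 1 to 3 and 50.5, 16.1 and 66.1 CPM in ICM-like cells. It was lower in TE-like cells of each library, although the TE-like value of replicate 1 exceeded the ICM-like value of replicate 2, and it was 2.75-fold lower in the fit, with a log2 fold change of -1.46 ± 0.33 (SE; edgeR adjusted p = 0.048). Rpl10l made 0.748%, 1.19% and 0.603% of the Rpl10 count in TE-like cells and 1.46%, 3.01% and 2.17% in ICM-like cells.

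Few cells carried much of the Rpl10l count. In replicate 3 it was seen in 17 of 42 TE-like and 23 of 34 ICM-like cells, and 3 cells gave 47.4% and 50.0% of the counts. In replicate 2 it was seen in 13 of 36 and 20 of 27 cells, and in replicate 1 in 22 of 30 and 23 of 35. The call rested on all 3 libraries: the adjusted p was 0.106, 0.124 and 0.368 without replicate 1, 2 and 3. It was 0.166 with thinned cells, 0.110 without cells of high totals, 0.227 without barcodes 33 to 64 and 0.99997 without the library block, and the log2 fold change stayed below 0 in each of these fits.

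Rpl39 and Rpl39l have coding sequences of 156 bases, of which 85.3% are equal; Rpl39l (chromosome 16, 10170226 to 10174911, plus strand) is known from the testis. They are printed whole, with the 23 differing bases in capitals, to show how far the pair differs.
Rpl39: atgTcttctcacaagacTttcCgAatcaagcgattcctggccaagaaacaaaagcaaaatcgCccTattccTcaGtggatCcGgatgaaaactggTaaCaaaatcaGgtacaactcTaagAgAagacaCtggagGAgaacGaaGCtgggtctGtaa
Rpl39l: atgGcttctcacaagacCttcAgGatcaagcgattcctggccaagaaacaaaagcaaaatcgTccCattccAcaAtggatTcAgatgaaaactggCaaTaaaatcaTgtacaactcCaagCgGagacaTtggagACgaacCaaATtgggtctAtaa

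Rpl39l was a sizeable paralog in these cells, with a count in 211 of 225 cells. Its count was 18.9%, 16.0% and 38.5% of that of Rpl39 in TE-like cells and 20.1%, 12.5% and 36.9% in ICM-like cells of replicates 1 to 3. The log2 ratio differed between the classes by 0.11 ± 0.23 (SD, n = 3), less than its spread between libraries.

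Rps27l, which codes for a small subunit protein nearly identical to Rps27 and is a known p53 target, was the paralog with the steadiest difference. Its count was 50.2%, 78.6% and 164% of that of Rps27 in TE-like cells and 43.2%, 66.7% and 136% in ICM-like cells. The TE-like ratio was the higher one in each library, by 0.22, 0.24 and 0.27 on the log2 scale (mean 0.24 ± 0.03, SD, n = 3; two-sided exact sign-flip permutation p = 0.25, Benjamini-Hochberg 0.375 over 6 pairs). This p is the smallest that 3 libraries allow. Rps27 itself had 1907, 314 and 469 CPM in TE-like sums and 2035, 361 and 557 CPM in ICM-like ones, lower in TE-like cells of each library, while Rps27l had 957, 247 and 768 against 878, 241 and 756 CPM. All 50-base stretches at the end of Rps27 occur in other transcripts, those of Rps27rt included.

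The other paralog ratios moved less or less evenly. Rpl7l1, known from large subunit assembly, had 180, 247 and 250 CPM in TE-like sums and 289, 352 and 296 CPM in ICM-like ones, and the classes did not overlap. Its log2 fold change was -0.43 ± 0.14 (SE; edgeR adjusted p = 0.161), and its log2 ratio to Rpl7 differed by -0.31 ± 0.33 (SD, n = 3). The ratio of Rpl36al to Rpl36a, whose product reaches the tRNA exit site, differed by 0.07 ± 0.04, and that of Rpl22l1 to Rpl22 by -0.06 ± 0.19 (SD, n = 3). Rpl22l1 made 18.4% to 27.0% of the Rpl22 count in TE-like cells and 21.3% to 24.5% in ICM-like cells. None of the 6 ratios could reach an adjusted p below 0.05.

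Rpl3l, known from heart and skeletal muscle, was near the floor. It had 1, 2 and 2 counts in TE-like and 23, 95 and 32 counts in ICM-like cells of replicates 1 to 3. In ICM-like cells it was seen in 4, 6 and 2 cells, and 1 cell gave 82.6%, 80.0% and 93.8% of the counts, so no ratio was formed. Its adjusted p was 0.083 in edgeR and 0.0039 in DESeq2.

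**Figure D4:**
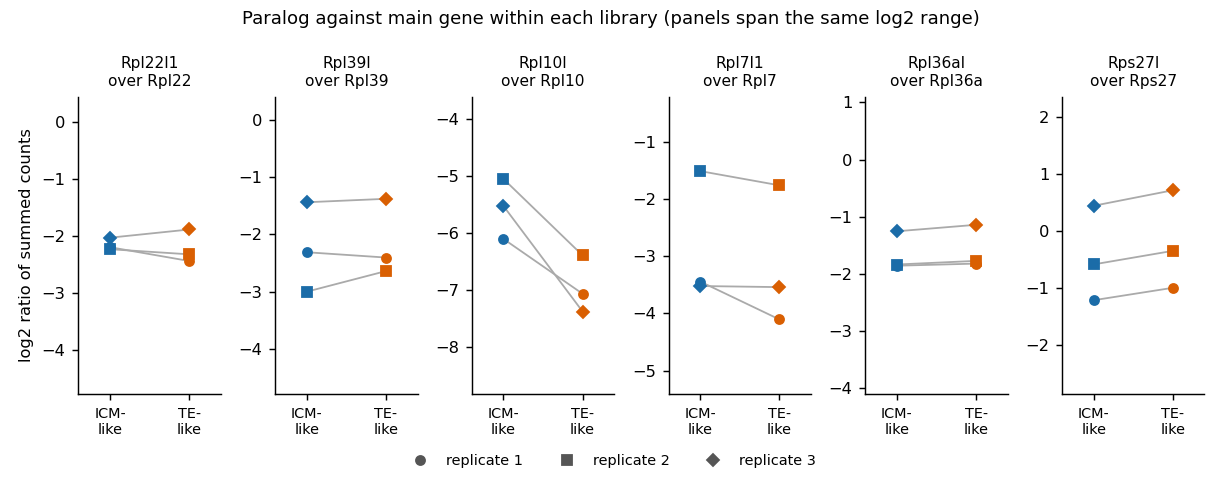
Log2 ratio of the summed counts of a paralog and its main gene (vertical axis) in ICM-like and TE-like cells of each library; lines join the classes of 1 library, and each panel spans the same log2 range. The ratio of Rpl10l to Rpl10 is lower in TE-like cells of each library, and that of Rps27l to Rps27 is higher by 0.22 to 0.27. The libraries span a wider range than the classes for Rpl39l, Rpl7l1, Rps27l and Rpl36al, and for Rpl22l1 in TE-like cells.

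The makeup of the ribosomal protein counts depended far more on the library than on the cell class. Over 79 genes, the SD of the log2 ratio of shares between classes was 0.13, 0.13 and 0.10 in replicates 1 to 3, whereas between libraries it ran from 0.64 to 0.75 in TE-like and from 0.65 to 0.76 in ICM-like cells. Shorter genes tended to take more of the pool in replicate 1, although the shortest did not lie highest. Against replicate 3 the share of Rps29 was higher by 2.497 in TE-like cells and 2.681 in ICM-like cells on the log2 scale. Rps28 (2.11 and 2.15) and Rpl38 (2.08 and 1.91) followed, and Rpl7a was lowest (-1.63 in both classes). The genes with the shortest coding sequences were Rpl41 (1.12 and 1.10), Rpl39 (0.89 and 0.98) and Rpl39l (-0.14 and 0.10). Over 78 coding genes the log2 ratio of replicate 1 to 3 had a Spearman correlation of -0.70 and -0.72 with coding length in the 2 classes, and that of replicate 2 to 3 of -0.35 and -0.37. These are descriptions over genes that share libraries.

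**Figure D5:**
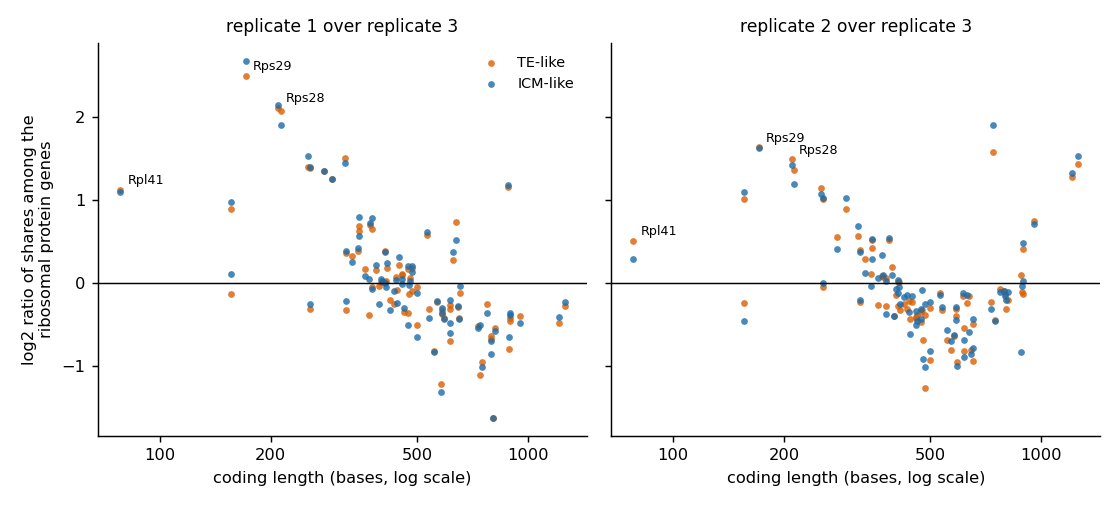
Log2 ratio of a gene's share of the ribosomal protein counts in replicate 1 or 2 over replicate 3 (vertical axis) against its coding length in bases (horizontal axis, log scale), for TE-like and ICM-like cells. Most genes have similar values in both classes, with exceptions such as Rps2 in replicate 2 (0.10 against -0.83). Rps29, Rps28 and Rpl38 lie highest in replicate 1, and the shorter Rpl41 lies at 1.12 and 1.10.

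Other genes with short transcripts were low in replicate 2 as well. Between replicates 2 and 3, genes with transcripts of up to 500 bases had a median log2 ratio of CPM of -1.21 (18 ribosomal protein genes) and -1.72 (35 other genes with a mean of at least 50 CPM). Those of 501 to 700 bases had a median log2 ratio of CPM of -1.94 (21 ribosomal protein genes) and -2.16 (112 other genes). For 701 to 1000 bases the medians were -1.93 (22 genes) and -2.25 (230 genes). For 1001 to 2000 bases they were -1.76 (16 genes) and -0.60 (962 genes), and above 2000 bases -1.46 (2 genes) and 0.85 (2357 genes). The medians of the ribosomal protein genes were below 0 in every bin and did not move steadily with length, while those of the other genes were higher above 1000 bases. The part of transcript length in the low share was not tested.

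The 18 unnamed cells of replicate 1 were low in the whole group, and their class is not known. All 75 genes of at least 300 CPM were lower in them than in the named cells of the library, by a median of -3.65 on the log2 (CPM + 1) scale. Rpl12 lay nearest to the named cells (-1.28), with 668 against 1628 CPM, and Rps29 stood at 1779 against 6253 CPM. Rpl23a (-5.03), Rpl28 (-4.92) and Rpl14 (-4.64) lay farthest below. The unnamed cells were not shallow, with a median of 345506 counts and 7713 genes, and their summed oocyte markers were 466 CPM against 26.1 and 56.0 CPM in the TE-like and the ICM-like class of that library. Summed EPI markers were 1394 CPM against 773 and 1191 CPM, summed PrE markers 761 against 369 and 611 CPM, summed ICM markers 483 against 307 and 1159 CPM, and summed TE markers 824 against 5244 and 493 CPM. The part of these in their low share was not tested.

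The start sites were searched for a pyrimidine stretch of the kind that opens 5′ TOP mRNAs. The letters CTTTC were sought on the gene's strand within 25 bases on each side of the RefSeq start (GRCm38.p6). Of the 88 genes 67 were matched to a start, and 20 of the 67 held the letters (29.9%), beside 7.87% of 27025 genes. Other pyrimidine runs were not searched for, so these are not shares of genes with a 5′ TOP motif. On either strand the shares were 38.8% and 14.4%. Among paralogs, 1 of 7 held it on the gene's strand and 3 of 7 on either strand (42.9%), and of 59 genes other than paralogs 19 held it on the gene's strand (32.2%) and 23 on either strand (39.0%). Windows of 30 bases around the start are shown for 3 genes that hold the letters (capitals) and were level between the classes, and for 2 paralogs with lower TE-like values in each library, in which these letters are absent from the window. These genes were picked as examples with their values known, and most genes that were level lack the letters too.
Rplp2 (chr7:141447636-141447665, plus strand): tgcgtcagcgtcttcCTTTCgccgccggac
Rpl28 (chr7:4792950-4792979, plus strand): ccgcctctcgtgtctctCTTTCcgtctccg
Rpl38 (chr11:114668565-114668594, plus strand): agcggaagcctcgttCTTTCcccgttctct
Rpl10l (chr12:66284387-66284416, minus strand): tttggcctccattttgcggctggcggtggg
Rpl7l1 (chr17:46782642-46782671, minus strand): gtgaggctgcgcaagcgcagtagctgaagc

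Lists of genes that act with the ribosome were read beside the 4.13% of all genes that edgeR called (1.29% lower) and the 11.5% that DESeq2 called (5.2% lower). In edgeR 2304 of all 13517 genes tested had an unadjusted p below 0.05. Of other 5′ TOP mRNAs, 18 were tested, none was called in edgeR, and the median log2 fold change was -0.01. In edgeR 2 had an unadjusted p below 0.05, and DESeq2 called 1 lower, Npm1, which codes for a nucleolar chaperone. None of 31 ribosome biogenesis factors was called in edgeR, where 5 had an unadjusted p below 0.05 and the median was -0.19. DESeq2 called 3 of the 31 lower: Dkc1, Ncl and Wdr12. Of 15 genes of RNA polymerase I and 5S RNA transcription, edgeR called 2 lower in TE-like cells, 6 had an unadjusted p below 0.05 and the median was -0.39. Polr1b, the second largest subunit of RNA polymerase I, had 43.0, 190 and 67.9 CPM in TE-like sums and 68.6, 443 and 122 CPM in ICM-like ones (log2 fold change -0.86 ± 0.18, SE; edgeR adjusted p = 0.038). Nolc1, a nucleolar phosphoprotein, had 356, 313 and 212 against 529, 463 and 476 CPM (-0.72 ± 0.16, SE; edgeR adjusted p = 0.046). Both were lower in TE-like cells of each library. Without replicate 1, 2 or 3 the adjusted p was 0.049, 0.239 and 0.206 for Polr1b and 0.076, 0.129 and 0.261 for Nolc1, so Nolc1 passed in none of these fits and Polr1b only without replicate 1. Nolc1 also did not pass without barcodes 33 to 64, with at least 4000 genes per cell (0.054) or with finer TE-like cluster 4 alone (0.171), nor Polr1b with finer cluster 0 alone (0.103). DESeq2 called 5 of the 15 lower.

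In the mTORC1 and LARP1 list 1 of 19 genes passed, Larp4, which binds poly(A) tails (log2 fold change -1.14 ± 0.17, SE; edgeR adjusted p = 0.0097), and the list's median was -0.10. Its adjusted p was 0.0996 without replicate 3, 0.114 without cells of high totals (log2 fold change -0.67) and 0.079 with finer TE-like cluster 4 alone. In edgeR 4 of the list had an unadjusted p below 0.05, and DESeq2 called 2 of the list higher and 2 lower. Among 16 genes of ribosomal protein import and surveillance, Trp53 was lower in TE-like cells, at 48.9, 107 and 70.4 against 130, 281 and 251 CPM (-1.50 ± 0.18, SE; edgeR adjusted p = 0.0029). Without replicate 3 its adjusted p was 0.058. None of 39 mitochondrial ribosomal protein genes was called in edgeR or DESeq2, 1 had an unadjusted p below 0.05, and the median was 0.09. Median values of these lists stand beside -0.00 over all genes tested and -0.04 over the 82 ribosomal protein genes.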

How the data were processed

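Single-cell RNA was counted in 3 libraries of 96 barcodes. Per the labels' protocols, cDNA was made by an optimized Smart-seq2 method with an oligo(dT) primer carrying a cell barcode and a molecular identifier, and 3′ ends were sequenced. The deposited values are whole-number counts per gene and barcode, not normalized; per the submitters' processing notes CASAVA 1.8, HISAT2, HTSeq and mm10 were used. No source used here gives the annotation, the strand setting or how molecular identifiers were used, so intervals and floors cover counting error only. Library totals were 30573711, 27610866 and 54444536 counts.

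Barcodes with at least 2000 genes were clustered (scanpy 1.11.5, 10 principal components, 15 neighbours, Leiden resolution 0.3) on 52 TE, ICM, EPI and PrE markers; cells were picked singly by hand, and doublets were not called. Counts were summed per class (at least 8 cells) and library and tested with edgeR 4.0.16 (quasi-likelihood, filterByExpr, TMM, library as block because both classes come out of 1 library; Benjamini-Hochberg threshold 0.05), with DESeq2 1.42.0 as an alternative. Classes were drawn on the cells tested, so p-values leave out that uncertainty. Paralog log2 ratios needed at least 3 counts in every sum. Named genes were those called, the paralogs, the 5 highest and 5 lowest by CPM, the 5 per direction with the largest relative change (same sign in 3 libraries, at least 50 CPM), Rpl5 and Rpl11, and up to 3 called genes per direction of each other list; Rps2, Rps27, Rpl10, Rpl30, Rpl38, Rpl7a, Rpl14, Rpl23a, Rpl28, Rplp1, Rplp2, Npm1, Dkc1, Ncl and Wdr12 were added after their values were seen. The group and the lists were chosen with earlier results of these data known. Gene positions and lengths came from GENCODE M21 (GRCm38, the build called mm10), matched by symbol for 88 of 88 genes, and start windows from RefSeq. No protein sequences were used here. One result of a gene list is not reported here.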

Additional observations from a re-analysis of the deposited data

Results flagged for a closer look

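Signal was present in data outside the comparisons. The 6 symbols that hold -ps had 203 counts in the retained cells, from Rps15a-ps4 (94) and Rps19-ps3 (109). In the barcodes with fewer than 2000 genes, the ribosomal protein genes held 16.4%, 7.07% and 15.1% of the counts in replicates 1 to 3. The retained cells had 14.7%, 4.72% and 14.5%, and those of replicate 1 include its 18 unnamed cells. TE-like and ICM-like cells held 21.3% and 21.5% in replicate 1, 4.55% and 4.92% in replicate 2, and 13.7% and 15.5% in replicate 3.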

How the results depend on the processing

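The count of called ribosomal protein genes (1 of 82) was 2 with DESeq2, 1 with DESeq2's size factors, library totals, no filter on low counts, cells named in both clusterings, finer TE-like cluster 0 alone or barcodes 33 to 64 left out, and 0 with the summed count of the genes as library size, thinned cells, 4000 genes per cell, cells of high totals left out or finer TE-like cluster 4 alone. It was 0 without any 1 of the libraries. Without the replicate block (the library pairs the classes) it was 0, and 1 of 12530 genes was called, against 558 with it. Without barcodes 33 to 64 the called gene was Rpl10 (log2 fold change -0.32, adjusted p = 0.046). There 27 of 82 ribosomal protein genes had an unadjusted p below 0.05, each lower in TE-like cells. No count over all genes was made at that p in this fit, so the 27 has no background beside it. None was called higher under any setting. Over all genes DESeq2 called 1550, and 332, 245 and 114 were called without replicate 1, 2 and 3. The share of higher among all calls was 68.6%, and 54.6% with DESeq2. Rpl10l passed in 6 of 21 alternatives, with log2 fold changes of -2.71 to -1.06 and adjusted p-values of 0.00070 to 0.99997. The Rps27l ratio moved to 0.16 (thinned), 0.19 (high totals left out) and 0.34 (barcodes 33 to 64 left out), and that of Rpl36al to -0.039 (thinned) and 0.12 (barcodes left out); the cause was not tested. Both finer clusters, the cells named in both clusterings and the barcode set were added after the data were seen. Not run as planned were the TE-like clusters of the main clustering (there was 1), the denominator without mitochondrially encoded genes (no such symbol was used) and all settings for EPI-like against PrE-like cells. With 3 libraries, no paralog ratio could pass a test.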
